A study of Mesocricetus auratus with 6 samples.

Results

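The Jun and Fos proteins and their relative Atf3 are the DNA-binding subunits of AP-1, and their transcripts were followed here in the pregnant hamster uterus. The members were the 8 genes Jun, Junb, Jund, Fos, Fosb, Fosl1, Fosl2 and Atf3. They were found as all probe sets whose platform annotation gives exactly 1 gene symbol equal to a member's. This gave 10 of the 22626 tested probe sets, or 8 of the 12393 gene symbols, with a pair of probe sets each for Jun and Fosl1 and 1 for every other member. All 8 symbols were also found among the RefSeq gene symbols of the hamster (assembly BCM_Maur_2.0). The family was chosen by gene name with the differences between implantation and interimplantation arrays already known, so those differences are described and not tested.

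AP-1 binds DNA as a dimer of basic leucine zipper proteins. Jun proteins pair with one another or with Fos proteins, whereas Fos proteins need a Jun or related partner. Fos, Fosb, Jun, Junb and Atf3 are classical immediate early genes, whose short-lived transcripts appear within minutes of a growth factor, steroid or stress signal. Jund and Fosl2 are usually expressed more steadily. In the uterus, AP-1 genes are known as targets of estrogen and of the growth factor signals that accompany blastocyst attachment.

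The study placed RNA of untreated pregnant Syrian golden hamsters (Mesocricetus auratus), taken on day 5 of pregnancy, on an Affymetrix mouse array. The implantation group was 3 arrays of uterine segments holding an attached embryo. The interimplantation group was 3 arrays of the segments between them, from the same stage and also untreated. The RNA sets came from 3 animals per the design text, and the strain, the age and which arrays shared an animal are not stated in the labels. Each segment is whole uterine wall, so fewer cells of a type and less RNA per cell cannot be told apart, and whether the embryo was part of the implantation samples is not stated.

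Values are the authors' RMA signals on a log2 scale, where 1 unit is a doubling. RMA makes the arrays' distributions alike, so each difference is set against what most probe sets do. The probes match mouse sequence, and mismatches with hamster RNA can dim a probe set and shrink its difference. Levels of different probe sets were therefore not ranked against each other, and were set only against control probe sets or used to pick 1 probe set per listed gene. Interimplantation array 1 stood apart from the rest on the second principal component (−20.7, the other arrays from −1.85 to 11.6). Of the 10 member probe sets, those of Jund and Junb had a mean above the brightest of 27 Bacillus controls (5.79), as did 19.1% of all tested probe sets. The other 8 lay between 4.30 and 5.66, where dimness does not show that a transcript is absent.

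Jun was lower at the implantation site, by 0.89 with 1 probe set and by 0.14 with the other. Jund was lower by 0.39 with little spread between arrays. Fos was lower by 0.32, but its groups overlapped. Junb was lower by 0.19, Fosl2 was higher by 0.13, and Fosb, Fosl1 and Atf3 differed by less than 0.1 in either direction. These directions depend on the scaling. With every array scaled to its hybridisation controls, only the first Jun probe set stayed lower, and the other 9 were higher. The SE with that scaling was 0.22 for every member probe set. Neither it nor a p-value under that scaling measures the spread of each probe set. The limma fit, at a Benjamini-Hochberg adjusted p under 0.05, placed 2 member probe sets among the lower calls and 0 among the higher, where 1.05% of all probe sets were called lower and 1.26% higher. Since the members were chosen with this comparison in view, nothing is read from that count.

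**Figure D1:**
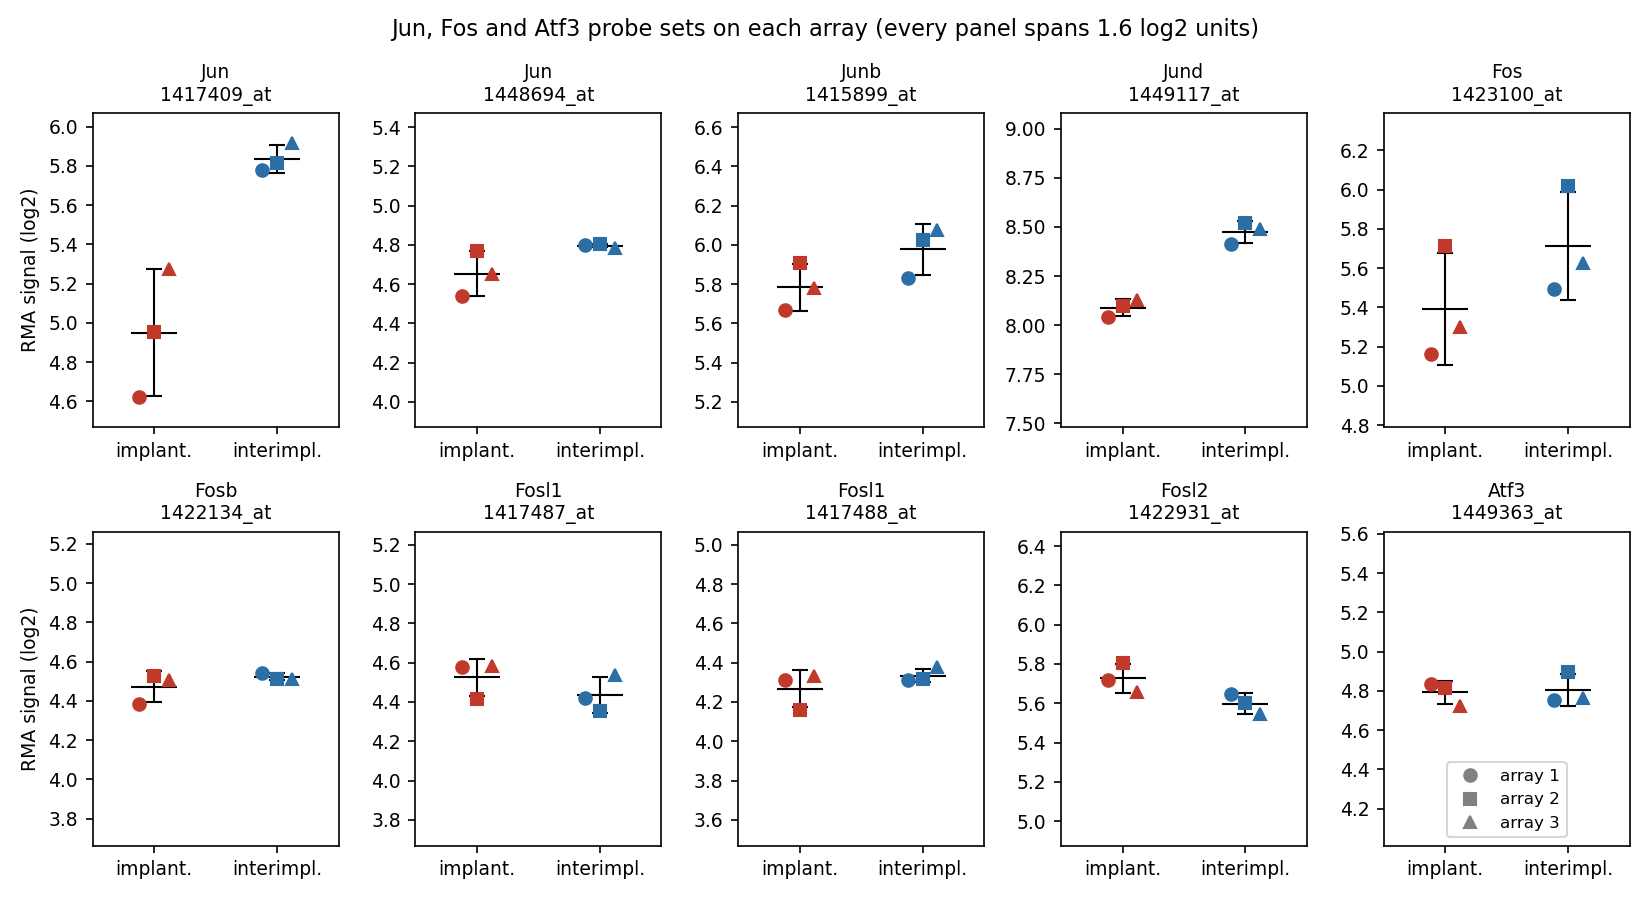
RMA signal (log2, vertical axis) of each of the 10 probe sets on the 3 implantation arrays (red) and the 3 interimplantation arrays (blue). Symbols give the array number, horizontal bars the group mean and whiskers the SD (n = 3). The groups stand clear of each other for Jun 1417409_at and for Jund, and overlap for Fos, where the arrays of each group are widely spread.

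Jun encodes c-Jun, the strongest transcriptional activator of the family and the substrate from which the JNK kinases take their name. By the probe set 1417409_at its signal was 4.62, 4.95 and 5.27 on implantation arrays 1, 2 and 3, and 5.78, 5.81 and 5.91 on interimplantation arrays 1, 2 and 3. Every implantation array was below every interimplantation array, with a gap of 0.50 between the nearest. The implantation arrays were spread widely (4.95 ± 0.32, SD, n = 3), while the interimplantation arrays lay close together (5.84 ± 0.07, SD, n = 3). The difference was −0.89 (SE 0.13), or 1.85-fold lower, and 99.7% of all tested probe sets had a smaller absolute difference. It ran from −1.05 to −0.72 when each array was left out in turn, and was −0.49 (SE 0.22) with scaling to the hybridisation controls. With that scaling the groups overlapped, with implantation array 3 level with interimplantation array 1 (5.34 each).

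The other Jun probe set, 1448694_at, showed a much smaller change. Its signal was 4.54, 4.77 and 4.65 on implantation arrays 1, 2 and 3, and 4.80, 4.80 and 4.79 on interimplantation arrays 1, 2 and 3. The groups again did not overlap, but the nearest arrays were only 0.019 apart. The difference of −0.14 (SE 0.09) turned to 0.26 (SE 0.22) with control scaling. Both probe sets report the same gene from the same RNA and are not replicates. Why they differ was not tested, since the probe sequences were not used here.

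Junb encodes a weaker activator that can restrain c-Jun when the pair form a dimer. Its signal was 5.67, 5.91 and 5.78 on implantation arrays 1, 2 and 3, and 5.83, 6.02 and 6.08 on interimplantation arrays 1, 2 and 3. Implantation array 2 lay above interimplantation array 1, so the groups overlapped. The difference was −0.19 (SE 0.10) and turned to 0.20 (SE 0.22) with control scaling.

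Jund encodes JunD, the member of the Jun subfamily that is present in most resting cells. Its signal was 8.04, 8.10 and 8.13 on implantation arrays 1, 2 and 3, and 8.41, 8.52 and 8.49 on interimplantation arrays 1, 2 and 3. All implantation arrays were lower, with a gap of 0.28 between the nearest, and the spread within groups was small (8.09 ± 0.04 and 8.47 ± 0.06, SD, n = 3 each). Only 6.60% of tested probe sets varied less within the groups. The difference was −0.39 (SE 0.08), or 1.31-fold lower. With control scaling it was 0.011 (SE 0.22), which is smaller than its SE, and the groups overlapped. Of the 6 fits that left out 1 array, Jund stayed among the calls in 1, the fit without interimplantation array 1, although its difference moved only between −0.42 and −0.36.

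In the Jun subfamily all 4 probe sets were lower at the implantation site on the deposited values, with a median difference of −0.29, where the median of all tested probe sets was −0.02. With control scaling that median was 0.11, below the 0.38 of all probe sets.

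Fos encodes c-Fos, the partner of c-Jun in the classical AP-1 dimer. Its signal was 5.16, 5.71 and 5.30 on implantation arrays 1, 2 and 3, and 5.49, 6.02 and 5.63 on interimplantation arrays 1, 2 and 3. Array 2 was the highest and array 1 the lowest in both groups, and implantation array 2 was above interimplantation arrays 1 and 3. The difference was −0.32 (SE 0.15), or 1.25-fold lower, and 0.075 (SE 0.22) with control scaling. It lay between −0.48 without implantation array 2 and −0.17 without interimplantation array 2.

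Within the groups Fos was among the most variable transcripts of the table. Its pooled SD was 0.28, against a median of 0.11 over all tested probe sets, and 98.9% of them varied less. The first Jun probe set was also variable (pooled SD 0.23, with 96.8% varying less), and there the spread lay in the implantation arrays (SD 0.32, against 0.07 in the interimplantation arrays). The array that was highest also differed, being implantation array 3 for Jun and implantation array 2 for Fos. Junb stood between (60.5% varying less), and the remaining 6 member probe sets other than Jund were in the lower 36.0% of the table.

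Fosb encodes FosB, an inducible Fos protein known for its long-lived splice form in neurons. Its signal was 4.38, 4.53 and 4.51 on implantation arrays 1, 2 and 3, and 4.54, 4.51 and 4.51 on interimplantation arrays 1, 2 and 3. Implantation array 2 lay within the range of the interimplantation arrays and the other implantation arrays below it, and the difference was −0.05 (SE 0.08). It was 0.35 (SE 0.22) with control scaling.

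Fosl1 encodes Fra-1, a Fos protein without a strong activation domain that is prominent in trophoblast and in invasive cells. By 1417487_at its signal was 4.58, 4.41 and 4.58 on implantation arrays 1, 2 and 3, and 4.42, 4.35 and 4.54 on interimplantation arrays 1, 2 and 3. By 1417488_at it was 4.31, 4.16 and 4.33 on the implantation arrays in the same order, and 4.31, 4.32 and 4.38 on the interimplantation arrays. The groups overlapped with both probe sets, and the differences had opposite signs, at 0.09 (SE 0.09) and −0.07 (SE 0.08). With control scaling both were positive, at 0.49 and 0.33 (SE 0.22 each), and the groups no longer overlapped with 1417487_at.

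Fosl2 encodes Fra-2, the other Fos protein of this kind, and was the member that was higher at the implantation site with no overlap. Its signal was 5.72, 5.81 and 5.66 on implantation arrays 1, 2 and 3, and 5.65, 5.60 and 5.54 on interimplantation arrays 1, 2 and 3. The nearest arrays, implantation array 3 and interimplantation array 1, were almost level. The difference was 0.13 (SE 0.08), or 1.09-fold higher, and 0.53 (SE 0.22) with control scaling.

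Atf3 encodes a stress-induced factor that pairs with Jun proteins and represses many of its targets as a homodimer. Its signal was 4.84, 4.82 and 4.73 on implantation arrays 1, 2 and 3, and 4.75, 4.90 and 4.76 on interimplantation arrays 1, 2 and 3. The groups were mixed, with interimplantation array 2 the highest and implantation array 3 the lowest, and the difference was −0.01 (SE 0.08). It was 0.38 (SE 0.22) with control scaling, where the median of all probe sets was also 0.38.

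Counted over the family, 8 of the 10 probe sets had a negative difference and 2 a positive one, where 12786 of all 22626 were negative. The median of the members was −0.10. The groups did not overlap in 3 that were lower and 1 that was higher, where 11.7% and 7.62% of all probe sets did so in these directions. With control scaling 0 were lower without overlap and 2 were higher, Fosl2 and Fosl1 by 1417487_at. The scaling matters because the hybridisation controls, RNA of known amount added before hybridisation, were on average 0.40 dimmer on the implantation arrays (6.64 ± 0.17) than on the interimplantation arrays (7.03 ± 0.27, SD, n = 3 each), with overlap between the groups. Scaling to them took the median over all probe sets from −0.02 to 0.38. Against that median, the Jun probe set 1417409_at, Jund and Fos remained on the lower side and Fosl2 on the higher side, as they must, because the same shift is added to every probe set. Which of the scalings stands closer to the RNA was not tested.

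**Figure D2:**
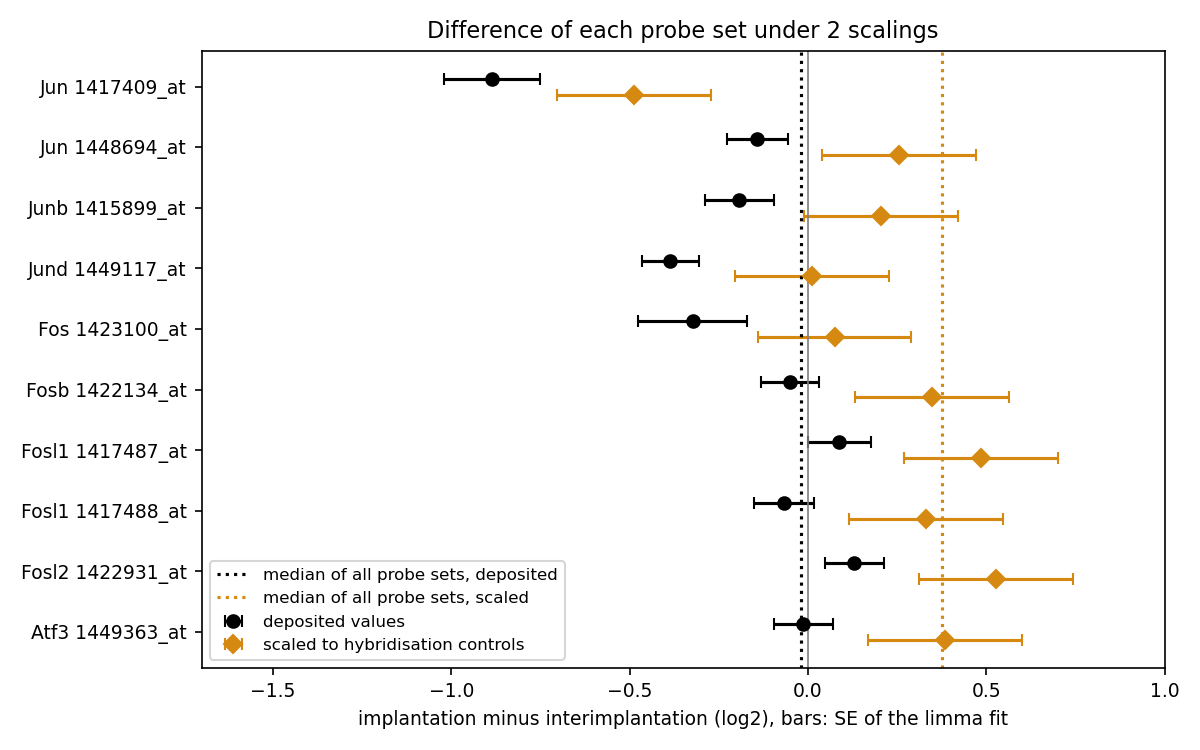
Difference between implantation and interimplantation arrays (log2, horizontal axis) of each member probe set, with the SE of the limma fit, on the deposited values (black) and after scaling to the hybridisation controls (orange). The SE after scaling was the same for every member probe set. Dotted lines mark the median of all tested probe sets, at −0.02 and 0.38. The first Jun probe set lies left of 0 in both, Jund moves from −0.39 to 0.011 and Fos from −0.32 to 0.075.

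Genes outside the family were compared with the 1417409_at probe set of Jun and with Jund by their pattern over the arrays. Likeness was the root mean square distance over the 6 arrays between values centred on each probe set's mean, taken over 20370 probe sets with 1 symbol, and a distance of this kind mostly reflects the difference between the groups. The nearest to Jun were Cpeb4, which controls the translation of polyadenylated transcripts (0.13 log2 units apart), the noncoding RNA Meg3 (0.15), the histone demethylase Kdm3a (0.16), the RNA decay factor Zfp36l2 (0.17) and the autophagy protein Gabarap (0.17). Jund was nearest to Spin1 (0.014), Tbl1xr1 (0.038), Letmd1 (0.041), Gpr108 (0.042) and Sufu (0.043). Within the family, the probe set nearest to Jun 1417409_at was that of Jund (0.30), and the second Jun probe set was farther (0.41). The one nearest to Jund was Junb (0.12).

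Genes around AP-1 were taken from 5 lists, each gene by its probe set with the highest mean. Of 123 measured genes 1 rose and 3 fell by limma at an adjusted p under 0.05, where 1.36% of all genes were called higher and 1.18% lower. Connexin 43 (Gja1) rose and Mef2a, Map3k1 and Btg2 fell. At an unadjusted p under 0.05 by limma, 761 of all 12393 genes were higher and 1074 lower, and 6961 had a negative difference. The counts of each list below stand beside these. The lists were chosen with earlier results of these data known.

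The upstream kinases and transcription factors carry signals to the Jun and Fos promoters and proteins. Of 27 measured, 2 fell, 0 rose and 25 did not pass by limma (6 lower and 1 higher at an unadjusted p under 0.05), 23 of the 27 differences were negative and the median was −0.12, beside −0.02 for all genes. Mef2a, a MADS box factor that binds the Jun promoter, fell from 7.17 ± 0.03 to 6.60 ± 0.13 (SD, n = 3; difference −0.57, SE 0.09, limma adjusted p = 0.00515), though its 5 probe sets ran from −0.57 to 0.02. Map3k1, a kinase at the head of the JNK cascade, fell from 4.41 ± 0.33 to 3.76 ± 0.10 (SD, n = 3; difference −0.65, SE 0.14, limma adjusted p = 0.0312). Its probe set was dim, with a mean of 4.08, below the median of all tested probe sets (4.56). Map3k1 kept its call without interimplantation array 1 but not without any other array (limma adjusted p from 0.0891 to 0.157). Neither was called with control scaling (differences −0.17 and −0.26, limma adjusted p = 0.450 and 0.285). Map2k3, which activates p38, was at 0.30 and did not pass (limma adjusted p = 0.0757), but was called with control scaling (0.70, limma adjusted p = 0.0406). The other probe set of Map2k3 was at 0.11 on the deposited values.

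Among partners and competitors of the basic leucine zipper class, 0 of 23 passed limma in either direction, and 1 was lower at an unadjusted p under 0.05. The median was −0.02, as over all genes. The 3 with the smallest p were Mafg (−0.25), Crem (−0.18) and Mafk (−0.18), with limma adjusted p from 0.231 to 0.548, and all 3 had positive differences with control scaling. The other probe set of Mafg was at −0.0037, and the 3 of Crem ran from −0.29 to −0.18. Of coactivators and of factors that turn over AP-1 proteins, 0 of 11 passed limma, although an unadjusted p under 0.05 was reached by 2 that were higher and 1 that was lower, and the median was −0.03. Cops5, a coactivator of c-Jun also called Jab1, was at 0.27, the c-Jun ubiquitin ligase subunit Fbxw7 at 0.24 and the deacetylase Sirt1 at −0.29 (limma adjusted p from 0.178 to 0.327). The other probe set of Cops5 was at −0.11 and that of Fbxw7 at 0.12. The value for Sirt1 turned to 0.11 with control scaling. Fbxw7 and Sirt1 were dim, with means of 3.78 and 2.87, below the median of all tested probe sets (4.56).

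Of the textbook targets of AP-1, 1 of 31 rose, 0 fell and 30 did not pass by limma, with a median of −0.04. At an unadjusted p under 0.05 there were 3 higher and 2 lower. Gja1, the gap junction protein of the decidualising stroma and of the myometrium, rose from 8.94 ± 0.34 to 9.98 ± 0.09 (SD, n = 3; difference 1.04, SE 0.14, limma adjusted p = 0.00249). Its 6 probe sets were all higher, from 0.13 to 1.04, and the one used carries the suffix for probes that can match other transcripts. Cyclin D1 (Ccnd1) was at 0.37 and keratin 18 (Krt18) at −0.47, and neither passed (limma adjusted p = 0.0636 and 0.0866). The 3 probe sets of Ccnd1 ran from 0.0036 to 0.37. Krt18 had a mean of 4.38, below the median of all tested probe sets (4.56). Ccnd1 was called with control scaling (0.77, limma adjusted p = 0.0175), with repeated quantile normalization and without the dimmer probe sets (limma adjusted p = 0.0493 and 0.0438), and Krt18 without interimplantation array 1 (−0.59, limma adjusted p = 0.0149).

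Of the other immediate early genes, 1 of 31 fell, 0 rose and 30 did not pass by limma, with 22 negative differences and a median of −0.11. At an unadjusted p under 0.05 there were 7 lower and 2 higher. Btg2, an antiproliferative gene that recruits the deadenylase complex to transcripts, fell from 7.23 ± 0.05 to 6.48 ± 0.26 (SD, n = 3; difference −0.75, SE 0.12, limma adjusted p = 0.00547). The other probe set of Btg2 was at 0.19, and the first was no longer called with control scaling (−0.35, limma adjusted p = 0.176). Zfp36, which speeds the decay of AU-rich transcripts such as that of Fos, was at −0.43 and the matricellular gene Ccn2 at −0.32, without passing (limma adjusted p = 0.0567 and 0.157). Zfp36 lay near the threshold. It was called without interimplantation array 1 (−0.51, limma adjusted p = 0.0172), with a trended and robust variance, with repeated quantile normalization and without the dimmer probe sets (limma adjusted p from 0.0384 to 0.0493), but not with control scaling (−0.03, limma adjusted p = 0.898). The value of Ccn2 turned to 0.081 with control scaling, and its mean of 4.51 was below the median of all tested probe sets (4.56).

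**Figure D3:**
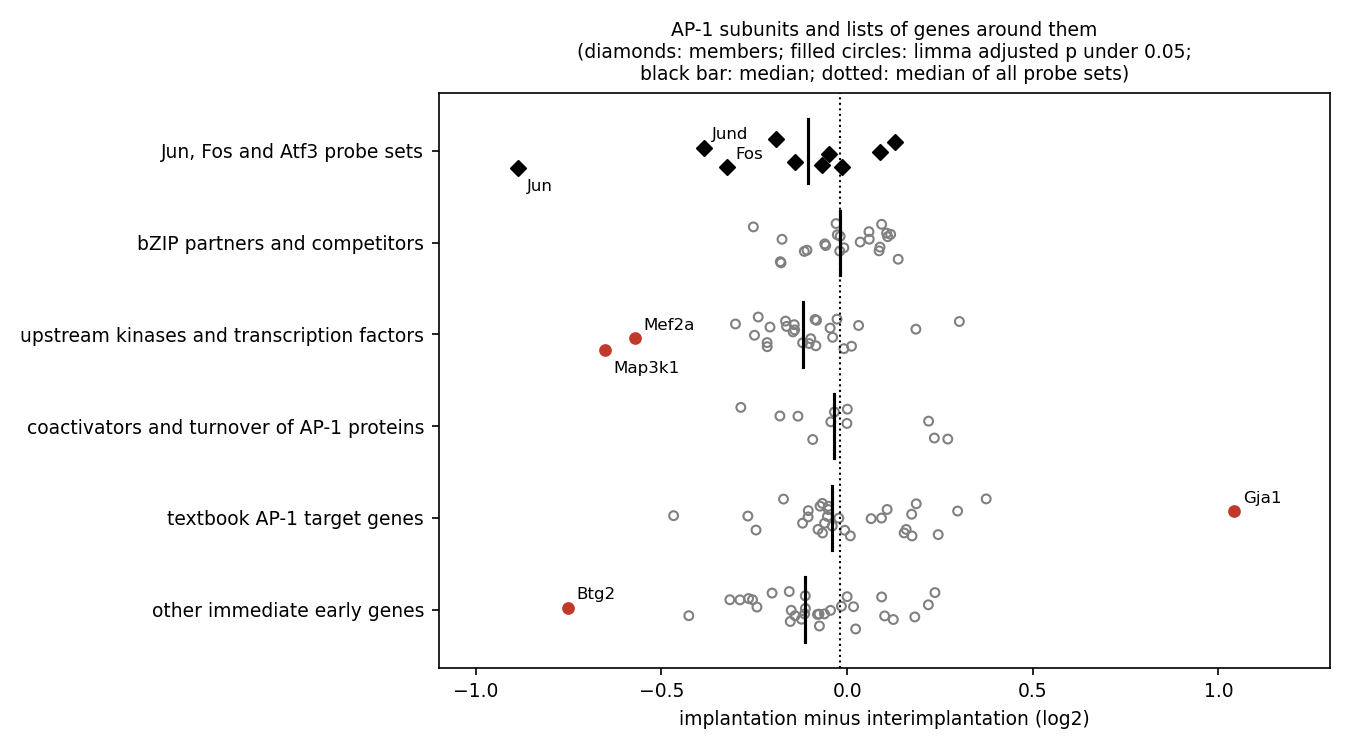
Difference between implantation and interimplantation arrays (log2, horizontal axis) of the 10 member probe sets (diamonds) and of the genes of 5 lists (circles, 1 probe set per gene). Filled circles passed limma at an adjusted p under 0.05, black bars are medians and the dotted line is the median of all tested probe sets. Gja1 lies far to the right, and Map3k1, Mef2a and Btg2 lie far to the left of their lists.

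Other measures moved between the groups beside Jun and Jund, on the deposited values. Of 14 uterine epithelium markers 3 fell (Cldn7, Sox17 and Wnt7b) and 13 were negative. Over all 12393 genes, 1.18% were called lower and 1.36% higher by limma, and 6961 had a negative difference. The mean level of the 14 was 5.22 to 5.29 on the implantation arrays and 5.48 to 5.57 on the others. Sox17 had 2 probe sets, at −0.53 and 0.07, and Wnt7b had 2, at −0.50 and −0.31. Of 10 smooth muscle markers 2 fell (Actg2 and Tagln), 7 were negative and 3 positive. The mean level of the 10 was 5.31 to 5.54 against 5.72 to 5.94. Of 13 markers of stroma and decidua 1 rose (Wnt4), but 8 were negative and 5 positive, with a median difference of −0.05. Their mean levels were 6.26 to 6.35 and 6.20 to 6.31. At an unadjusted p under 0.05 by limma, 6 epithelial, 5 smooth muscle and 1 of the stromal markers were lower. In the same order 0, 1 and 2 were higher, where 1074 of all genes were lower and 761 higher. None of the 8 endothelial, 14 leukocyte, 10 embryo and trophoblast or 3 erythroid markers measured was called by limma, and at an unadjusted p under 0.05 there were 1 higher (a leukocyte marker) and 1 lower in each of these 4 lists. The median difference was −0.17 for the epithelial and −0.24 for the smooth muscle markers and turned to 0.23 and 0.16 with control scaling. The differences of Actg2 (−1.74) and Tagln (−1.26) were larger than that of Jun, and with control scaling both stayed lower (−1.34 and −0.87, limma adjusted p = 2.94e-07 and 0.00491) and Wnt4 stayed higher (1.03, limma adjusted p = 3.15e-04). Cldn7, Sox17 and Wnt7b were not called with that scaling (limma adjusted p from 0.155 to 0.644). The p-values with that scaling rest on an SE shared between probe sets and do not measure each gene's own spread. Epithelial and stromal markers above the brightest Bacillus control numbered 6 of 14 and 8 of 13, and embryo and trophoblast markers 1 of 10.

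The signal of the 3' actin control probe set exceeded that of the 5' one by 0.35 ± 0.17 on the implantation arrays and by 0.53 ± 0.04 on the interimplantation arrays (SD, n = 3 each). This quantity serves as a measure of RNA integrity, but mismatches of the mouse probes with hamster RNA can also shift it. For the Gapdh controls the same quantity was −0.52 ± 0.05 and −0.57 ± 0.27, with the 5' probe set the brighter on every array. Without interimplantation array 1 the difference of the first Jun probe set was −0.91, that of Jund −0.42 and that of Fos −0.43. The part of cell composition and of RNA integrity in the Jun and Jund differences was not tested.

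**Figure D4:**
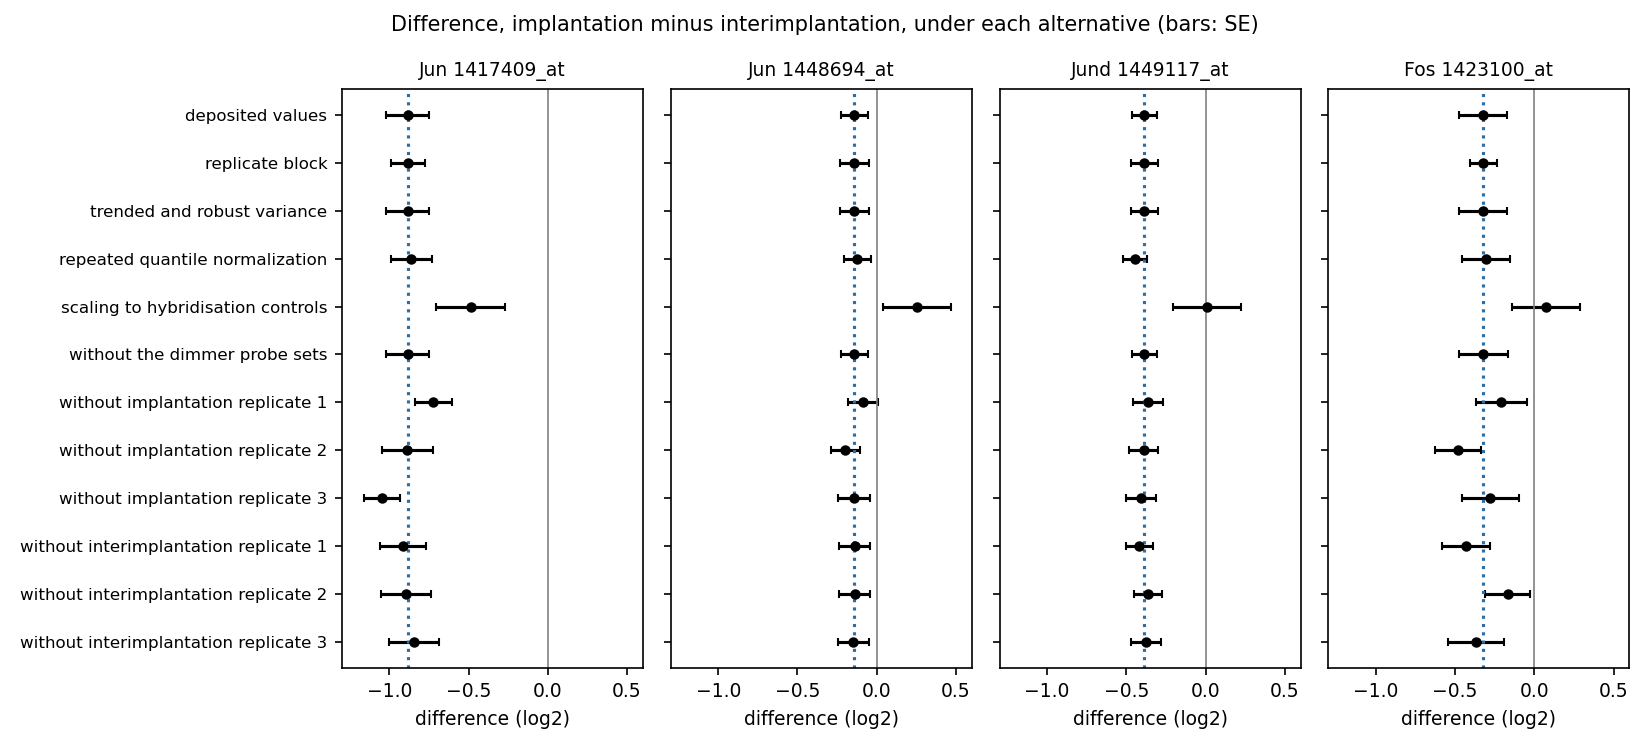
Difference between implantation and interimplantation arrays (log2, horizontal axis) of both Jun probe sets, Jund and Fos on the deposited values and under 11 alternatives, with the SE of each fit. The first Jun probe set stays left of 0 throughout, and scaling to the hybridisation controls brings Jund and Fos to 0.011 and 0.075 and the second Jun probe set to 0.26.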

How the data were processed

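The authors deposited log2 signals of 22690 probe sets on each array. Per the submitters' processing notes they used Partek 6.6 and RMA. The log base is not stated there and is taken from RMA's usual output and the range of the values. After the 64 control probe sets were left out, 22626 were tested with no filter on level, of which 20380 had 1 gene symbol in the platform annotation. The groups were compared with limma 3.58.1 under R 4.3.3 (lmFit, eBayes, a two-sided test of the group term alone) and Benjamini-Hochberg adjustment over all 22626, and the calculation was tested on simulated data. Differences are implantation minus interimplantation, with the SE of the fit. The number of arrays limits the precision. The second scaling shifts each array by the mean of its 18 hybridisation control probe sets. With it the limma fit gave the same SE (0.22) to every member probe set and named pathway gene.

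The members and lists were chosen with earlier results of these data known. The named genes were all member probe sets, the called genes and the 3 with the smallest p of each list, the called markers, and the 5 probe sets nearest to each of the 2 members with the largest difference. The arrays were biological replicates per the labels, and no 2 arrays held identical values.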

Additional observations from a re-analysis of the deposited data

How the results depend on the processing

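The 6 arrays limit every value, and with 8 of 10 member probe sets no brighter than the brightest Bacillus control, small differences of dim genes may be missed. Scaling to the hybridisation controls changed the most: higher and lower calls over all probe sets went from 284 and 238 to 752 and 13, lower calls among the members from 2 to 0, and higher and lower calls among the pathway genes from 1 and 3 to 4 and 0. Jund turned to 0.011 and, among genes not called on the deposited values, Ccn2 to 0.081, Crem to 0.22, Mafg to 0.14, Mafk to 0.22 and Sirt1 to 0.11. The shift is the same for every probe set by construction. Leaving out each array in turn gave 117 to 329 higher and 88 to 401 lower calls over all probe sets, 1 to 2 lower calls among the members (0 higher throughout), and 1 to 2 higher and 2 to 5 lower pathway genes. Repeated quantile normalization and the omission of the dimmer probe sets each gave 2 higher pathway genes. Averaging the probe sets of each gene gave 1 lower pathway gene in place of 3, and 1 higher as before. The cause of these changes was not tested.

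The groups share replicate numbers, and deviations of same-numbered arrays from their group means correlated at −0.09, 0.07 and −0.03 over 22626 probe sets. Arrays with unlike numbers correlated from −0.09 to 0.10, a range that holds the same-numbered values. The correlations therefore cannot decide whether same-numbered arrays shared an animal, and this is not known. The numbers were not used as pairs in the main fit. That fit treats all arrays as independent, which would not hold if arrays of the groups shared animals. With the replicate number as a block, 294 probe sets were higher and 240 lower, 2 member probe sets stayed called, and 5 pathway genes were lower, among them Krt18 and Zfp36 (limma adjusted p = 0.0182 and 0.0272). Fos kept its difference of −0.32 and its SE went from 0.15 to 0.09, but it was not called. Same-numbered arrays differed by −0.33, −0.31 and −0.33 for Fos and by −0.37, −0.42 and −0.36 for Jund. They differed by −1.15, −0.86 and −0.64 for Jun 1417409_at and by −0.16, −0.12 and −0.30 for Junb. For Fosl2 they differed by 0.07, 0.21 and 0.12, and for Atf3 the signs were mixed. As the numbers are not known to be pairs, nothing is read from these values.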
